A study of Mus musculus with 16 samples.

Results

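The collagen genes of the mouse were followed in cultured adult neural stem cells with and without Fmr1, as cytoplasmic RNA and as ribosome footprints. They were taken by symbol, as the rows named Col, a number, the letter a and a number, and came to 44 of the 20409 genes with a symbol. Of these, 16 had enough counts to be tested in RNA, 16 in footprints, 14 in both and 18 in at least 1 of the assays, while 26 were too low in each.

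Collagens are secreted proteins of 3 chains wound into a triple helix. Fibrillar collagens (types I, II, III, V, XI, XXIV and XXVII) form the fibres of connective tissue, type IV forms the sheet of basement membranes, type VI forms beaded filaments, and FACIT collagens attach to the surface of other fibrils. In the brain, fibrillar collagen is largely found in the meninges and around vessels, and type IV collagen lies in the basement membrane of vessels and in the extensions of it that reach stem cells of the adult subventricular zone.

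The cells were neural stem cells isolated from the dentate gyrus of 8- to 10-week-old male FVB/N mice, the region of the hippocampus where new neurons form in adults. They came from Fmr1 knockout (KO, Fmr1-/y) mice and from wild type (WT) littermates, and were grown as dividing cultures in EGF and FGF2 at 20 ng/ml each. The product of Fmr1, FMRP, binds RNA and is missing in people with fragile X syndrome. Before harvest all cultures were held for 10 min in 100 µg/ml cycloheximide, which stops elongating ribosomes on the RNA. There were 4 KO footprint, 4 WT footprint, 4 KO RNA and 4 WT RNA libraries from 8 cultures of independently isolated cells, the RNA and the footprints of a culture being taken from the same lysate. The labels tie no culture to a single animal, so p-values measure the spread between cultures.

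Total counts per library were 5330018 to 6580305 in RNA and 9397586 to 17147612 in footprints, of which collagens held 4505 to 7774 in RNA and 7197 to 16673 in footprints. Fmr1 footprints were at 24.1, 27.0, 12.7 and 14.7 CPM (counts scaled to library size) in KO cultures 1 to 4, against 129, 149.6, 149.3 and 148.6 CPM in WT cultures 1 to 4, and they fell in KO cells (log2 fold change -2.93, SE 0.22, adjusted p = 0.014 by edgeR's quasi-likelihood test). Fmr1 RNA was at 3.35 to 30.8 CPM in KO libraries and 27.4 to 107 CPM in WT libraries. Of the 12 neural stem cell markers examined, 12 had counts in KO RNA and 11 in WT RNA, where Prom1 was at 0. Their summed level was 6199 to 7768 CPM in KO RNA and 7394 to 10575 CPM in WT RNA.

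The sequences below lie where the type IV genes start, since these genes are arranged in pairs that are read in opposite directions and supplied the largest share of the collagen RNA. They come from RefSeq on build GRCm38.p6, whose promoter windows matched 35 of the 44 genes. Col4a1 and Col4a2 start so close together on chromosome 8 that their first bases overlap. The 30 bases at chr8:11312801-11312830, read along the + strand, hold the promoter-window start of Col4a2 (+ strand) and that of Col4a1 (- strand). The capitals mark the 22 bases from 1 of these starts to the other. By the RefSeq gene spans Col4a2 begins at 11312805 and Col4a1 at 11312889, so the genes share more bases than those marked.
Col4a1/Col4a2: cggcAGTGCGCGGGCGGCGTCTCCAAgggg
The pair of Col4a5 (+ strand), which was expressed, and Col4a6 (- strand), which was nearly absent, lies on chromosome X and starts 1343 bases apart. The 250 bases before each start are given 5′ to 3′ on the gene's own strand, from chrX:141475169-141475418 for Col4a5 and chrX:141474077-141474326 for Col4a6. These starts are those of the promoter windows. The RefSeq gene spans reach further out, to 141475370 for Col4a5 and 141474095 for Col4a6, so the last bases of each window lie inside its gene. Capitals mark matches to the CCAAT box (CCAAT) and the GC box (GGGCGG), searched on both strands.
Col4a5: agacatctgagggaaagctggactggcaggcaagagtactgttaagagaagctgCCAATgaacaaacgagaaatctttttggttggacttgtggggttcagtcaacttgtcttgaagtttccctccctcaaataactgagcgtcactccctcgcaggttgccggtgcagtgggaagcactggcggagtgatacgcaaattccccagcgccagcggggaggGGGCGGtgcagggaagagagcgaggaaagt
Col4a6: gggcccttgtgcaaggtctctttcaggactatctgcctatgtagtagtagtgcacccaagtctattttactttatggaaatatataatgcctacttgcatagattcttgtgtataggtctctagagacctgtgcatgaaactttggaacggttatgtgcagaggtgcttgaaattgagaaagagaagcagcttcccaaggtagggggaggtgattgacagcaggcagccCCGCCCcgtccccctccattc
The Col4a5 window held 1 CCAAT match and 1 GC box match, and the Col4a6 window 1 GC box match. Of 32851 windows of this length, 33.8% held a CCAAT match and 32.7% a GC box match, so these matches are common and describe the letters only. Neither window held a TATA box match (TATAAA), which 12.4% of windows did.

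Which collagens the cells express was read from TPM (transcript level scaled for gene length and library depth), which was rounded to whole numbers by the authors. In RNA, 6 collagens averaged at least 10 TPM over the 8 libraries, 6 averaged 1 to 10 TPM and 32 averaged under 1 TPM. In footprints the counts were 5, 7 and 32. The 6 leading genes were Col4a1, Col16a1, Col4a2, Col4a5, Col28a1 and Col9a3. Together they supplied 81.2% to 93.5% of the collagen TPM of an RNA library and 84.0% to 93.4% of that of a footprint library. The collagens common in connective tissue were close to 0. At the other end, 7 collagens had no count in any RNA library and 2 had none in any footprint library.

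**Figure D1:**
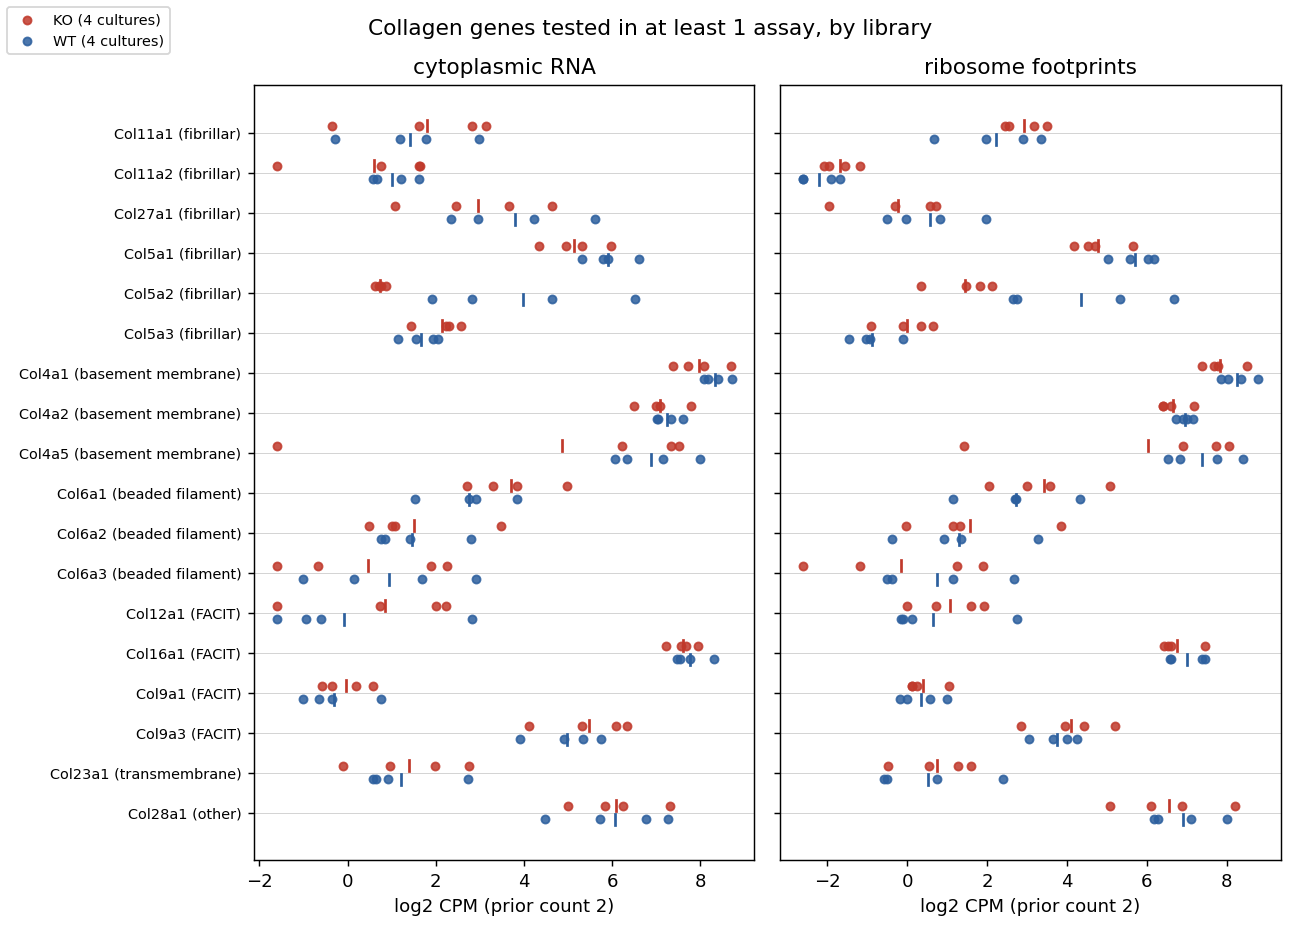
The 18 collagens tested in at least 1 assay, with log2 CPM (prior count 2) on the horizontal axis, KO cultures in red above WT cultures in blue, 4 points per genotype and a vertical bar at the mean. The type IV genes Col4a1 and Col4a2 and the FACIT gene Col16a1 lie at the right with their cultures close together, Col4a5 has 1 KO culture far to the left, and Col5a2 is the only gene whose KO points all lie left of its WT points in both panels.

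By class, the 6 type IV genes summed to 96.5 ± 21.6 TPM in KO RNA and 121 ± 35.6 TPM in WT RNA (SD, n = 4 each), or 47.3% of the collagen TPM in KO RNA and 49.9% in WT RNA on average. The 9 FACIT genes summed to 65.8 ± 7.32 TPM in KO RNA and 64.5 ± 6.76 TPM in WT RNA (SD, n = 4 each), nearly all of it Col16a1 and Col9a3. Col28a1, which is counted here with Col7a1 and Col26a1 as unclassed, supplied 22.3 ± 14 TPM in KO RNA and 24.8 ± 16.7 TPM in WT RNA (SD, n = 4 each). The 11 fibrillar genes summed to 10.0 ± 2.45 TPM in KO RNA and 23.3 ± 12.2 TPM in WT RNA (SD, n = 4 each). In footprints the fibrillar sum was 6.75 ± 2.2 TPM in KO cells and 18 ± 9.49 TPM in WT cells (SD, n = 4 each). The ranges overlapped in RNA, with 7 to 12 TPM in KO libraries and 10 to 39 TPM in WT libraries, and likewise in footprints, with 5 to 10 TPM in KO libraries and 9 to 30 TPM in WT libraries. The beaded filament genes summed to 6.5 TPM in KO RNA and 3.5 TPM in WT RNA, and the short-chain network, multiplexin and transmembrane genes to at most 5 TPM in any RNA library. Because the cultures were sequenced in bulk, fewer cells of a type and less RNA per cell cannot be told apart in any of these values.

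The question of the genotype difference was put to the fibrillar collagens gene by gene. Of the 11, Col5a1, Col5a2, Col5a3, Col11a1, Col11a2 and Col27a1 could be tested in RNA, and Col5a1, Col5a2, Col11a1 and Col27a1 in footprints and in translational efficiency (TE, footprints relative to RNA, tested as the interaction of assay and genotype). None of them passed an adjusted p of 0.05 by edgeR's quasi-likelihood test in RNA, footprints or TE, where 0.00901%, 0.0349% and 0% of all genes tested did. At an unadjusted p under 0.05, Col5a2 was lower in KO cells in RNA, and Col5a1 and Col5a2 were lower in footprints, while none was below it in TE. Among all genes tested, 1.87% were under this limit in RNA, 4.59% in footprints and 0.129% in TE, and 1.07% in RNA and 2.54% in footprints were under it and lower in KO. With the replicate number as a block, no gene passed an adjusted p of 0.05 in either assay, against 1 gene in RNA and 4 in footprints without it. The block added Col5a1 and Col27a1 to Col5a2 among the fibrillar genes with an unadjusted p under 0.05 in RNA, and outside them Col6a1 and Col9a3, 5 of 16 collagens where 6.38% of all genes were under it. With and without the block, the RNA counts include Col5a2, which entered the RNA test through its WT libraries alone. Nothing is read from these RNA counts. In footprints the block added Col6a1 to Col5a1 and Col5a2, 3 of 16 collagens against 5.78% of all genes. DESeq2, run as an alternative, called Col5a2 in both assays and no other collagen, among 20 genes called in RNA (0.181% of those with an adjusted p) and 82 in footprints (0.715%).

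Col5a2 encodes the α2 chain of type V collagen, a minor fibrillar collagen that joins type I fibrils and sets their width. The gene lies on chromosome 1 at 45374331 to 45503282 of GRCm38.p6. In RNA, KO cultures 1 to 4 had 1.35, 1.49, 1.30 and 1.22 CPM, from 8, 9, 8 and 8 counts, against 92.0, 24.7, 6.75 and 3.44 CPM in WT cultures 1 to 4, from 469, 161, 41 and 22 counts. The KO libraries were all low and close together, and the WT libraries were all above them but spread widely, with WT 1 the highest and WT 4 the lowest.

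In footprints, Col5a2 had 1.10, 2.61, 3.34 and 4.17 CPM in KO cultures 1 to 4, against 103, 40.3, 6.08 and 6.59 CPM in WT cultures 1 to 4. The groups did not overlap here either, WT 1 and WT 2 were again far above the rest, and WT 3 and WT 4 were close to KO 4. Groups with KO wholly below WT were found for 1 of the 16 collagens tested in RNA and 1 of the 16 in footprints, this gene each time, and for 0.577% of all genes tested in RNA and 0.846% in footprints. Nothing is read from the RNA count, since Col5a2 entered the RNA test through its WT libraries alone.

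The log2 fold change of Col5a2 (KO over WT) was -4.54 (SE 1.00) in RNA and -3.05 (SE 1.03) in footprints, with intervals of 2 SE on each side of -6.54 to -2.54 and of -5.11 to -1.0. After Benjamini-Hochberg adjustment over all genes by edgeR, p was 1.00 in RNA and 0.933 in footprints. In RNA the gene passed the filter on low counts through the WT libraries alone, with 0 of 4 KO and 4 of 4 WT libraries at or above the limit of 1.65 CPM, so a difference in RNA was built into its being tested. In footprints all 8 libraries were above the limit of 0.838 CPM. By DESeq2 the adjusted p was 0.000133 in RNA, for a log2 fold change of -4.58, and 0.0132 in footprints, for -3.02. The call on Col5a2 therefore depends on the test.

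The size of the difference was set side by side for the cultures numbered 1 and 2 and those numbered 3 and 4, whose footprint libraries carry molecular identifiers of 5 and 8 nt. Within cultures 1 and 2 the log2 fold change of Col5a2 was -5.34 in RNA and -5.23 in footprints (edgeR adjusted p = 0.916 and 0.545). Within cultures 3 and 4 it was -2.0 in RNA and -0.76 in footprints (edgeR adjusted p = 1.00 in both). Mean levels in cultures 1 and 2 were 1.42 CPM in KO RNA and 58.3 CPM in WT RNA, and in cultures 3 and 4 they were 1.26 CPM in KO RNA and 5.09 CPM in WT RNA. In footprints they were 1.86 CPM in KO and 71.4 CPM in WT for cultures 1 and 2, and 3.75 CPM in KO and 6.34 CPM in WT for cultures 3 and 4. Leaving out 1 library at a time gave -4.94 (without WT replicate 4) to -3.10 (without WT replicate 1) in RNA, and -3.83 (without WT replicate 3) to -2.13 (without KO replicate 1) in footprints.

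**Figure D2:**
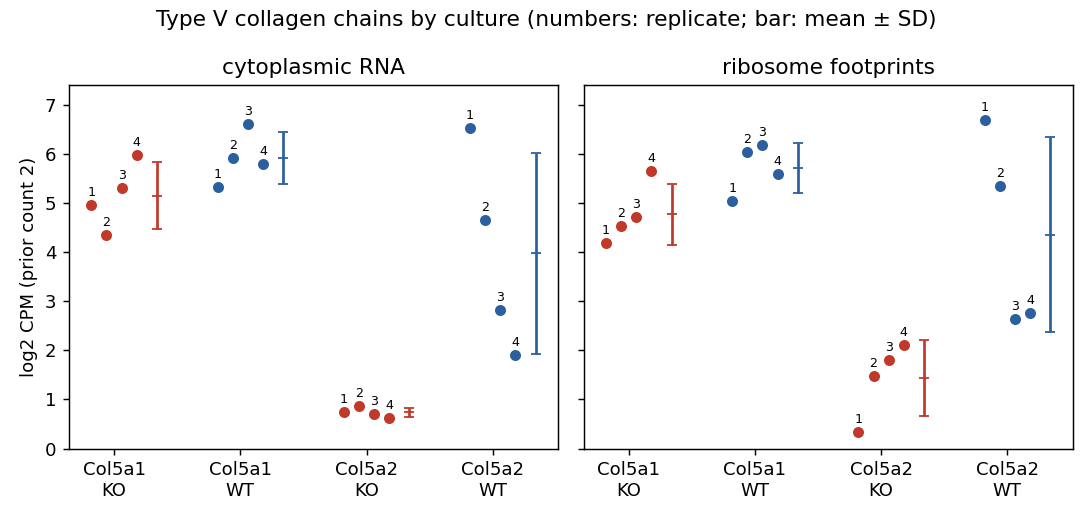
The type V chains Col5a1 and Col5a2 in log2 CPM (prior count 2), with KO left of WT for each gene, replicate numbers above the points and bars for the mean ± SD over 4 cultures. For Col5a2 the KO points in RNA lie together at 1.22 to 1.49 CPM and the WT points span 3.44 to 92.0 CPM, while for Col5a1 the KO and WT points overlap.

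Col5a1, on chromosome 2 at 27886381 to 28039510, encodes the α1 chain with which the α2 chain assembles and was the most abundant fibrillar collagen. Its RNA was at 30.6, 20.0, 39.3 and 62.4 CPM in KO cultures 1 to 4, against 39.8, 59.9, 97.0 and 54.9 CPM in WT cultures 1 to 4. Its footprints were at 18, 22.9, 26 and 50.0 CPM in KO cultures 1 to 4, against 32.7, 65.1, 72.6 and 48.0 CPM in WT cultures 1 to 4. KO was lower than the WT culture of the same number in 3 of 4 pairs in both assays, with culture 4 the exception, and the groups overlapped.

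The log2 fold change of Col5a1 was -0.72 (SE 0.39) in RNA and -0.96 (SE 0.31) in footprints, with edgeR adjusted p of 1.00 and 0.890. Within cultures 1 and 2 it was -1.0 in RNA and -1.25 in footprints, and within cultures 3 and 4 it was -0.58 in RNA and -0.68 in footprints (edgeR adjusted p of 0.999 or more in each). Leaving out 1 library at a time gave -1.07 to -0.43 in RNA, the smallest difference being without WT replicate 3 and the largest without KO replicate 4. In footprints it gave -1.24 to -0.67.

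The proportion of the type V chains was read from TPM. Col5a2 was listed at 0 in the rounded RNA values of each KO culture, against 3, 0.5, 0.0625 and 0.125 times Col5a1 in RNA of WT cultures 1 to 4. In footprints the ratio was 0, 0.25, 0.25 and 0.125 in KO cultures 1 to 4, against 3.67, 0.727, 0.0909 and 0.143 in WT cultures 1 to 4. Only WT 1 held more Col5a2 than Col5a1, and WT 3 and WT 4 lay within the KO range in footprints.

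The other fibrillar genes tested showed no common direction. Col27a1, which is expressed in cartilage and forms thin fibrils, was at 24.5, 12.4, 1.79 and 5.17 CPM in RNA of KO cultures 1 to 4, against 49.0, 18.6, 4.77 and 7.50 CPM in WT cultures 1 to 4. Each KO library was below the WT library of the same number, yet the groups overlapped because culture 1 was highest in both genotypes. Its log2 fold change was -0.86 (SE 0.86) in RNA and -0.90 (SE 0.53) in footprints. With the replicate block it was -0.85 (SE 0.23) in RNA and -0.89 (SE 0.57) in footprints (edgeR adjusted p = 0.574 and 0.907). Without WT replicate 1 but with KO replicate 1, each the highest of its group, the value without the block turned to 0.10 in RNA.

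Col11a1, whose chain is part of type XI collagen and can combine with type V chains, was at 8.45, 6.79, 2.76 and 0.456 CPM in RNA of KO cultures 1 to 4, against 1.96, 7.52, 0.494 and 3.13 CPM in WT cultures 1 to 4. The groups covered the same range. Its log2 fold change was 0.48 (SE 0.89) in RNA and 0.42 (SE 0.49) in footprints, and within cultures 3 and 4 it was -0.18 in RNA.

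Col5a3, the α3 chain of type V collagen, was at 2.37, 4.64, 4.39 and 5.63 CPM in RNA of KO cultures 1 to 4, against 3.53, 2.61, 3.79 and 1.88 CPM in WT cultures 1 to 4. It was higher in KO in 3 of 4 pairs, with a log2 fold change of 0.53 (SE 0.42, edgeR adjusted p = 1.00). On the rounded TPM values this difference was 0. Col11a2, the partner chain of Col11a1, was at 1.35, 2.82, 0 and 2.74 CPM in RNA of KO cultures 1 to 4, against 2.75, 2.00, 1.15 and 1.25 CPM in WT cultures 1 to 4, a log2 fold change of -0.04 (SE 0.84) whose sign changed when KO replicate 1, KO replicate 3, WT replicate 1 or WT replicate 2 was left out.

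Over the fibrillar genes tested, which include Col5a2 as tested through its WT level in RNA, 4 of 6 log2 fold changes were negative in RNA, with a median of -0.38, and 3 of 4 in footprints, with a median of -0.93. Over all genes tested the median was 0.01 in each assay, and 48.7% of values were negative in RNA and 48.8% in footprints. The RNA median was positive without KO replicate 3 (0.37), without WT replicate 1 (0.17) and without WT replicate 2 (0.02). The filter on low counts was rerun each time, so the genes in the median could change along with the library. Without KO replicate 3 the median was the value of Col11a2, a gene of low counts. The direction of the RNA median was thus not stable, and library and filter were not told apart. The footprint median stayed negative in each of the 19 alternatives run, at -1.27 to -0.15.

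**Figure D3:**
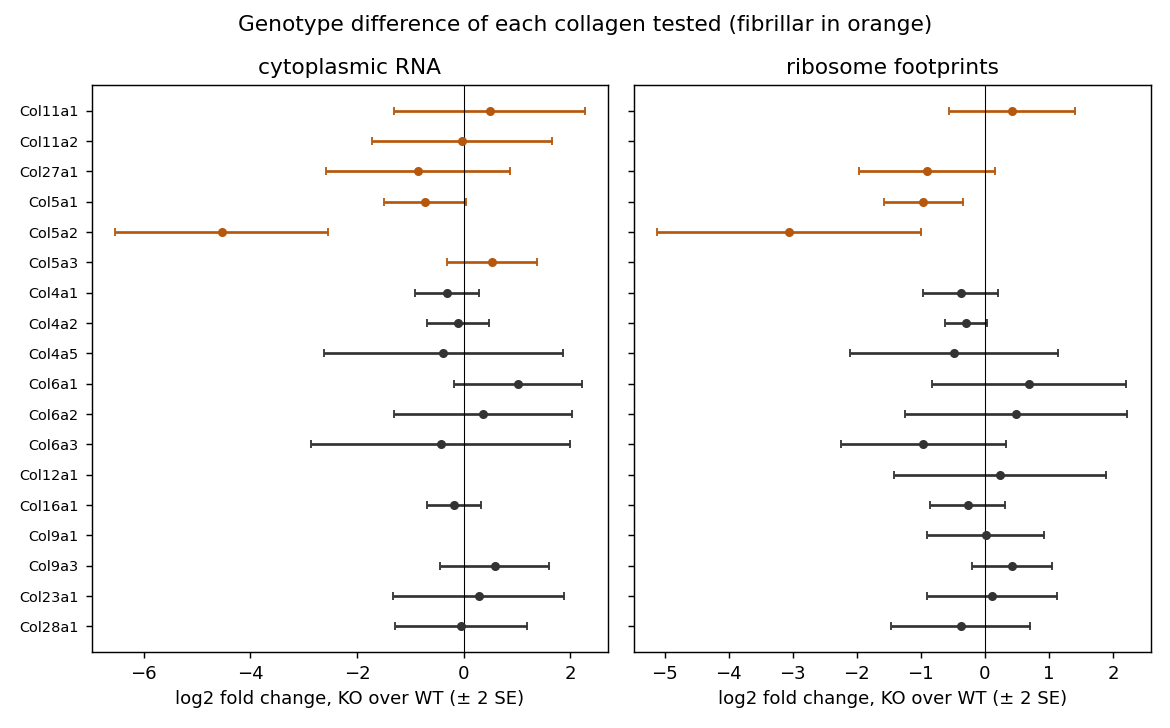
Log2 fold change (KO over WT) of each collagen tested, with bars of 2 SE on each side, fibrillar genes in orange and the others in grey. The bar of Col5a2 ends at -2.54 in RNA and -1.0 in footprints, the bar of Col5a1 ends below 0 in footprints, and the bars of the other genes cross 0 in both panels.

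The remaining fibrillar genes were too low to test. Col1a1, a chain of type I collagen, had 13, 10, 5 and 4 RNA counts in KO cultures 1 to 4 and 9, 6, 6 and 5 in WT cultures 1 to 4. Col1a2, its partner chain, had no RNA count in any library, and 6 footprint counts over the KO cultures and 8 over the WT cultures, all 8 of them in WT 1. A count of 0 over the 4 libraries of a group allows a sum of up to 3 counts. Col3a1, which lies beside Col5a2 on chromosome 1 at 45311538 to 45349706, had 2 RNA counts over the KO cultures and 5 over the WT cultures. Col2a1, the main collagen of cartilage, had 3 in each, and Col24a1 had no count in any of the 16 libraries. In WT 1 and WT 2, where Col5a2 had 469 and 161 RNA counts, Col1a1 thus had 9 and 6.

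The type IV chains were the most abundant class. Col4a1 and Col4a2 encode the α1 and α2 chains, which form the common trimer of basement membranes. Col4a1 was at 53, 44, 30 and 73 TPM in RNA of KO cultures 1 to 4, against 71, 93, 51 and 45 TPM in WT cultures 1 to 4. Col4a2 was at 26, 18, 22 and 38 TPM in RNA of KO cultures 1 to 4, against 26, 28, 34 and 26 TPM in WT cultures 1 to 4. Both genes were highest among KO cultures in KO 4, and the KO and WT ranges overlapped for each.

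Between genotypes the log2 fold change of Col4a1 was -0.31 (SE 0.30) in RNA and -0.38 (SE 0.29) in footprints, and that of Col4a2 was -0.10 (SE 0.29) in RNA and -0.30 (SE 0.17) in footprints, with edgeR adjusted p of 1.00 for each. For Col4a1 the sign depended on the cultures used, since within cultures 3 and 4 it was 0.05 in RNA and 0.08 in footprints. The ratio of Col4a1 to Col4a2 by TPM was 1.94 ± 0.446 in KO RNA and 2.32 ± 0.855 in WT RNA (SD, n = 4 each). In footprints it was 2.38 ± 0.422 in KO cells and 2.62 ± 0.807 in WT cells (SD, n = 4 each), a difference within the spread. Culture 3 had the lowest ratio in each genotype and assay, so these neighbouring genes did not keep a fixed proportion.

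Col4a5 encodes the α5 chain, which is mutated in Alport syndrome, and lies on chromosome X at 141475370 to 141689236. Its RNA was at 161, 184, 74.1 and 0 CPM in KO cultures 1 to 4, against 256, 142, 81.2 and 66.7 CPM in WT cultures 1 to 4. Its footprints were at 214, 264, 120 and 2.50 CPM in KO cultures 1 to 4, against 341, 217, 113 and 92.7 CPM in WT cultures 1 to 4. KO 4 stood alone, with no RNA count and 27 footprint counts, and apart from it cultures 1 and 2 were above culture 3 in both genotypes.

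Col4a6 had no RNA count in 5 of the 8 libraries, KO 4 among them, and had 4 footprint counts in KO 4. Psmd10, Atg4a and Nxt2, which lie near Col4a5 on chromosome X, were present in KO 4. Psmd10 was at 8.97 CPM in KO 4 RNA against 7.90 to 13.3 CPM in WT RNA, Atg4a at 6.39 CPM against 5.47 to 12.7 CPM, and Nxt2 at 7.45 CPM against 2.81 to 5.88 CPM. With KO 4 included, the log2 fold change of Col4a5 was -0.38 (SE 1.12) in RNA and -0.48 (SE 0.81) in footprints, and its interval of 2 SE ran from -2.62 to 1.86 in RNA. Without KO 4 it was 0.0233 (SE 0.51) in RNA and -0.0380 (SE 0.21) in footprints, neither past an adjusted p of 0.05 by edgeR. The other type IV chains were nearly absent. Col4a6, across the promoter from Col4a5, had 16 RNA counts over the KO cultures and 10 over the WT cultures, Col4a4 had 14 and 11, and Col4a3 had none in RNA.

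**Figure D4:**
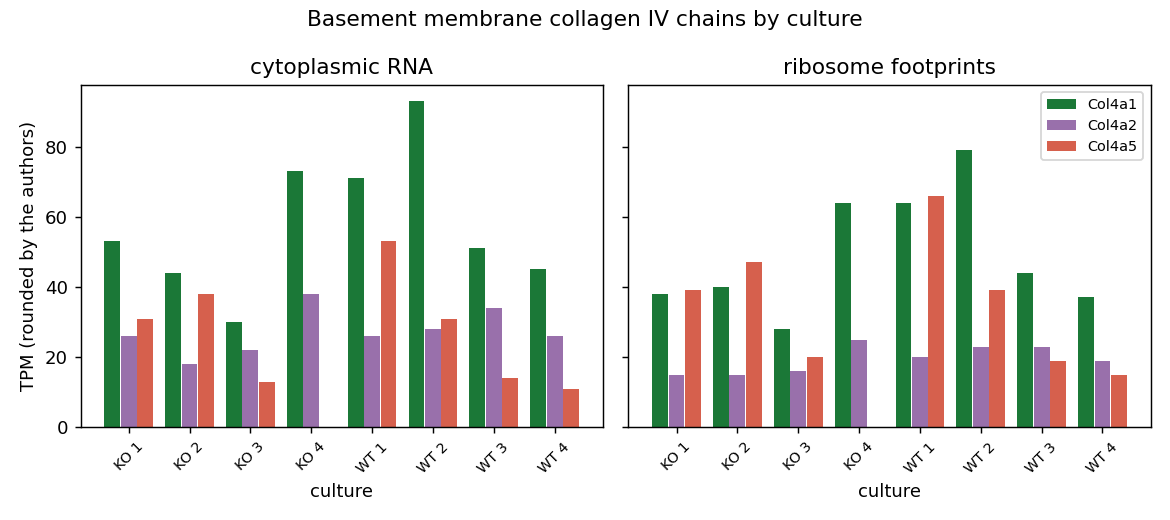
TPM of the type IV chains Col4a1, Col4a2 and Col4a5 in each culture, KO cultures left of WT cultures, with RNA in the left panel and footprints in the right. Col4a1 exceeds Col4a2 in each culture and assay, and Col4a5 runs from 53 TPM in WT 1 to 0 TPM in KO 4 in RNA.

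Among the FACIT genes, Col16a1 was at 39, 55, 28 and 38 TPM in RNA of KO cultures 1 to 4, against 41, 52, 33 and 56 TPM in WT cultures 1 to 4. Its log2 fold change was -0.19 (SE 0.25) in RNA and -0.27 (SE 0.29) in footprints, and it was among the least variable collagens. Col9a3, a chain of the cartilage-associated type IX collagen, was at 39.6, 17.1, 68.1 and 80.8 CPM in RNA of KO cultures 1 to 4, against 29.6, 14.7, 53.2 and 40.3 CPM in WT cultures 1 to 4. Each KO library was above the WT library of the same number, and the order of the cultures was nearly shared. The log2 fold change was 0.58 (SE 0.51) in RNA and 0.42 (SE 0.31) in footprints. With the replicate block it was 0.51 (SE 0.17) in RNA and 0.37 (SE 0.21) in footprints (edgeR adjusted p = 0.729 and 0.907). Its partner chains were scarce, with 17 RNA counts over the KO cultures and 13 over the WT cultures for Col9a1, and 7 and 41 for Col9a2.

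Col28a1 encodes a collagen with von Willebrand factor A domains that is known from nerve and glial tissue. Its RNA was at 31.8, 57.0, 76.0 and 158 CPM in KO cultures 1 to 4, against 52.9, 108, 153 and 21.9 CPM in WT cultures 1 to 4. Its footprints were at 33.5, 68.2, 118 and 296 CPM in KO cultures 1 to 4, against 77.9, 138, 256 and 72.7 CPM in WT cultures 1 to 4. KO was below WT in pairs 1 to 3, and culture 4 was the highest of KO and the lowest of WT in both assays. The log2 fold change was -0.06 (SE 0.62) in RNA and -0.37 (SE 0.54) in footprints, and within cultures 3 and 4 it was 0.42 in RNA and 0.32 in footprints.

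Col6a1 was the most abundant gene of type VI collagen. Its RNA was at 6.25, 31.3, 9.59 and 14 CPM in KO cultures 1 to 4, against 2.55, 14, 6.42 and 7.19 CPM in WT cultures 1 to 4. Footprints were at 3.96, 33.3, 7.80 and 11.8 CPM in KO cultures 1 to 4, against 2.03, 19.7, 6.49 and 6.38 CPM in WT cultures 1 to 4. KO exceeded the WT culture of the same number in 4 of 4 pairs in both assays, while the groups overlapped because culture 2 was highest and culture 1 lowest in each genotype.

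For Col6a1 the log2 fold change was 1.01 (SE 0.60) in RNA and 0.69 (SE 0.76) in footprints, with edgeR adjusted p of 1.00 in both. In footprints it was -0.14 without KO replicate 2 but with WT replicate 2, each the highest of its group. With the replicate block its SE was 0.23 in RNA and 0.18 in footprints (edgeR adjusted p = 0.504 and 0.721). In RNA its log2 fold change was 0.40 to 1.50 over the 19 alternatives run, with adjusted p of 0.504 to 1.00. Col6a2, its partner chain, was also highest in culture 2 in each genotype, at 10.8 CPM in KO 2 RNA and 6.60 CPM in WT 2 RNA, against 1.06 to 1.79 CPM in the other KO libraries and 1.37 to 2.34 CPM in the other WT libraries. Col6a3 was highest in culture 2 among KO cultures but in culture 1 among WT cultures, in both assays, and had a log2 fold change of -0.43 (SE 1.22) in RNA and -0.96 (SE 0.64) in footprints.

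Of the remaining classes, the transmembrane gene Col23a1 was at 6.42, 3.64, 1.62 and 0.608 CPM in RNA of KO cultures 1 to 4, against 6.27, 1.23, 1.15 and 1.56 CPM in WT cultures 1 to 4. Its log2 fold change was 0.28 (SE 0.80) in RNA and 0.11 (SE 0.51) in footprints, and its sign depended on the libraries used. Col18a1, a multiplexin of basement membranes, had 23 RNA counts over the KO cultures and 35 over the WT cultures, and 63 footprint counts over the KO cultures and 14 over the WT cultures. Col10a1, a short-chain collagen of growing cartilage, had no RNA count and 1 footprint count, in KO 4.

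The spread between cultures of 1 genotype was larger for collagens than for most genes. It was measured as the SD of log2 CPM over 4 cultures, pooled over KO and WT. The median over the 16 collagens tested was 1.12 in RNA and 1.14 in footprints, against 0.471 and 0.380 over all genes tested. Of the 16, 12 were above the median of all genes in RNA and 15 in footprints. Collagens differ from other genes in level and length, which were not matched in this comparison.

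Col4a5 had the highest SD of the collagens, 3.14 in RNA and 2.29 in footprints, through KO 4. Col6a3 followed with 1.82 in RNA and 1.83 in footprints. Col4a2 (0.424 in RNA and 0.288 in footprints), Col4a1 (0.442 and 0.440) and Col16a1 (0.345 and 0.474) were the steadiest of the abundant genes. The SDs of the genotypes were far apart for Col5a2 and Col4a5, a difference that was not tested. For Col5a2 the SD in RNA was 0.0987 in KO cultures, which held only 8 or 9 counts each, and 2.04 in WT cultures, and in footprints it was 0.777 in KO cultures and 1.99 in WT cultures. For Col4a5 it was 4.35 in KO cultures and 0.870 in WT cultures in RNA, and 3.11 and 0.864 in footprints.

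The highest and the lowest of the 8 cultures were compared between RNA and footprints of the same lysate. For 11 of the 14 collagens tested in both assays (78.6%), the same culture was the highest of the 8 in RNA and in footprints, against 44.9% of all genes tested in both. The same culture was the lowest for 6 of 14 (42.9%), against 45% of all genes. Among the 11 were Col5a2 and Col4a5 in WT 1, Col28a1 in KO 4, Col6a1 in KO 2 and Col5a1 in WT 3. Nothing is read from the place of Col5a2 here, since it entered the RNA test through its WT libraries alone. The larger spread of collagens was not matched in this comparison.

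**Figure D5:**
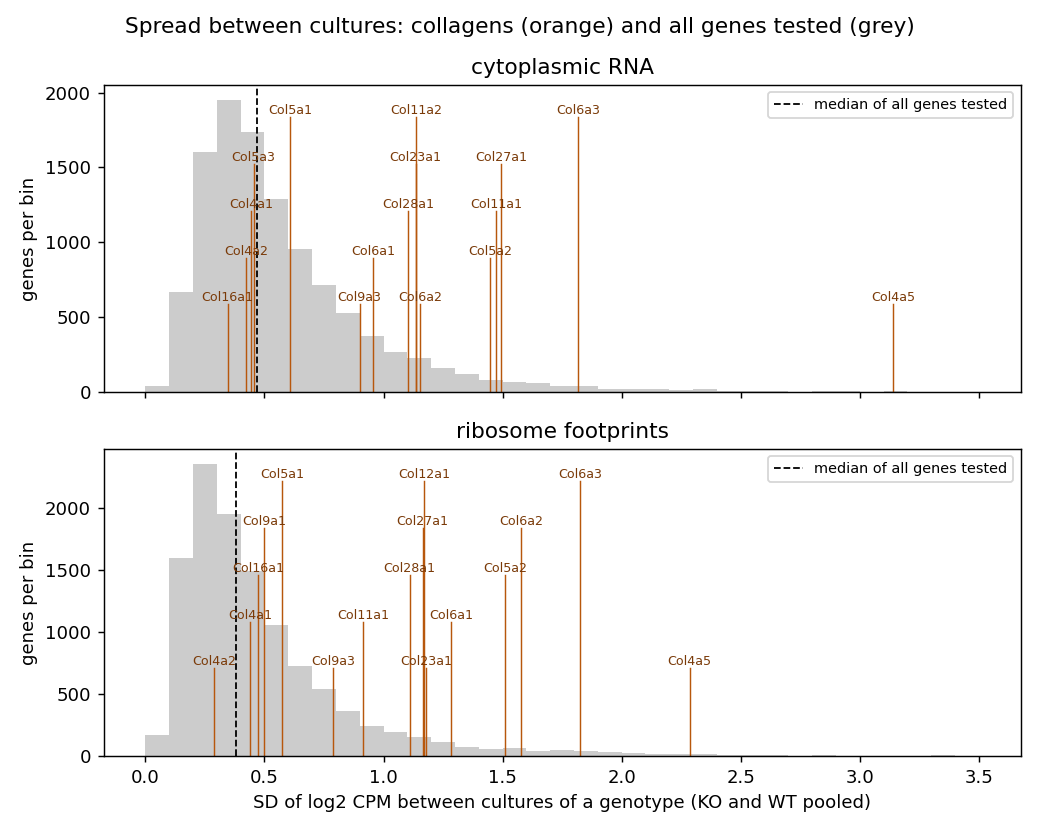
SD of log2 CPM between cultures of a genotype, pooled over KO and WT, for all genes tested (grey histogram) and for each collagen tested (orange line with its name). The dashed line marks the median of all genes, 0.471 in RNA and 0.380 in footprints. Most collagens lie to its right, and Col4a5 is the farthest.

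For footprints relative to RNA, no collagen showed a genotype difference past the tests. In TE none of the 14 collagens tested passed an unadjusted p under 0.05 by edgeR, where 0.129% of all genes tested did. None passed an adjusted p of 0.05 by DESeq2, where 0% of all genes did. With so few genes under these limits, the counts say nothing particular to collagens. The median over the 4 fibrillar genes tested was -0.03. Col5a2 had a TE log2 fold change of 1.54 (SE 1.52) and Col5a1 of -0.24 (SE 0.53). The Col5a2 interval of 2 SE ran from -1.51 to 4.59. This fit had no term for the culture, so its SE leaves out that RNA and footprints shared a lysate. Whether footprints followed RNA is therefore not read from the interval.

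Over the 8 cultures, the median log2 ratio of footprint CPM to RNA CPM was -0.27 over the collagens and -0.17 over all genes. Col27a1 stood at the low end, with a median of -3.24, below which lay 0.856% of all genes, and its ratio was -4.07 to -2.39 in single cultures. The mean for Col27a1 was -3.21 in KO cultures and -3.23 in WT cultures. RNA libraries count whole transcripts and footprints mainly the coding part, so this ratio compares genes only roughly.

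Enzymes and chaperones that fold, modify and process collagen were read from a list of 32 genes, of which 23 could be tested in RNA and 22 in footprints. None passed an adjusted p of 0.05 by edgeR or DESeq2, and none an unadjusted p under 0.05 by edgeR, in either assay, where 1.87% and 4.59% of all genes tested did. In RNA 16 of 23 values were negative with a median log2 fold change of -0.12, and in footprints 17 of 22 with a median of -0.20, against medians of 0.01 over all genes. The most abundant were Ppib, a proline isomerase of the endoplasmic reticulum, and P4hb, a subunit of prolyl 4-hydroxylase, with log2 fold changes of -0.03 (SE 0.21) and 0.03 (SE 0.19) in RNA. P3h4, a partner of collagen-modifying hydroxylases, was at -0.79 (SE 0.51).

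Serpinh1, which encodes the collagen chaperone HSP47, varied widely between cultures. Its RNA was at 110, 48.5, 65.8 and 0.304 CPM in KO cultures 1 to 4, against 291, 89.9, 422 and 0.469 CPM in WT cultures 1 to 4. Footprints were at 148, 106, 108 and 5.09 CPM in KO cultures 1 to 4, against 543, 223, 638 and 1.73 CPM in WT cultures 1 to 4. Culture 4 was near 0 in both genotypes and assays, and in the others KO was below WT. The log2 fold change was -1.84 (SE 1.44) in RNA and -2.04 (SE 1.34) in footprints, neither past an adjusted p of 0.05 by edgeR. Col4a1 and Col4a2 were at 414 and 221 CPM in KO 4 RNA, the highest of the KO libraries, and at 271 and 161 CPM in WT 4 RNA, where Col4a1 was the lowest of the WT libraries and Col4a2 the second highest.

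Collagen receptors were present. Of 8 listed, 5 could be tested in RNA and 6 in footprints, and none passed an adjusted p of 0.05 by edgeR or DESeq2, while an unadjusted p under 0.05 was found by edgeR for 0 in RNA and 1, Ddr2, in footprints, and for 1.87% and 4.59% of all genes tested. Gpr56 (Adgrg1), a receptor that binds type III collagen, and Itgb1, the β chain of the collagen-binding integrins, were the most abundant, with log2 fold changes of -0.05 (SE 0.29) and -0.37 (SE 0.35) in RNA. Ddr2, a receptor kinase that responds to fibrillar collagen, had footprints at 39.7, 75.6, 41.2 and 41.5 CPM in KO cultures 1 to 4, against 79.2, 95.2, 77.4 and 71.7 CPM in WT cultures 1 to 4. Its log2 fold change was -0.72 (SE 0.20, edgeR adjusted p = 0.764) in footprints and -0.68 (SE 0.38) in RNA, and KO was below WT in each pair.

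Of the 11 genes listed for collagen cleavage and its inhibitors, 3 could be tested in RNA and 4 in footprints, all of them Timp inhibitors, and none passed an adjusted p of 0.05 by edgeR or DESeq2. An unadjusted p under 0.05 was found by edgeR for 0 in RNA and 1, Timp1, in footprints, and for 1.87% and 4.59% of all genes tested. Timp1 footprints were at 14.5, 21.7, 21.7 and 0 CPM in KO cultures 1 to 4, against 0.726, 3.49, 0.203 and 1.08 CPM in WT cultures 1 to 4, so the groups overlapped through KO 4 (log2 fold change 3.51, SE 1.23), and in RNA the gene was too low to test. In RNA, Timp4 had a log2 fold change of 0.38 (SE 0.65), Timp2 of -0.44 (SE 0.27) and Timp3 of -1.20 (SE 1.37). Timp3 was near 0 in culture 4 of both genotypes, with 0.761 CPM in KO RNA and 0 CPM in WT RNA. The collagenase gene Mmp14 had no RNA count in KO cultures and 1 in WT cultures.

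Markers of cells that make fibrillar collagen in the brain were read beside these values. Of 13 fibroblast and meningeal markers, 8 had counts in KO RNA and 9 in WT RNA, and they summed to 271, 121, 236 and 115 CPM in KO cultures 1 to 4, against 172, 89.6, 294 and 65.8 CPM in WT cultures 1 to 4. Dcn, Lum, Postn and Col1a2 were at 0 in all RNA libraries, so the sum came from other genes of the list. The list also holds the collagens Col1a1, Col1a2 and Col3a1, so it is not separate from the collagen values. Fbln1, Foxc1, Fbln2, Thy1 and Twist1 averaged 35.1, 22.4, 16.1, 12.9 and 4.75 TPM in RNA. In footprints 13 of the markers had counts in KO cultures and 11 in WT cultures. In RNA the log2 fold change was 0.90 (SE 0.43) for Fbln2, 0.58 (SE 0.28) for Foxc1 and -0.27 (SE 1.45) for Fbln1, none past an adjusted p of 0.05 by edgeR. The part of such cells in the collagen values was not tested. Of 9 mural cell markers, 7 had counts in each genotype in RNA, and they summed to 227 to 387 CPM in KO RNA and 274 to 558 CPM in WT RNA. Only 2 of them could be tested in RNA, Notch3 and Acta2, which averaged 48.1 and 3.6 TPM. Pdgfrb and Vtn were at 0 in KO RNA, and Rgs5 and Abcc9 in WT RNA. The part of mural cells in the collagen values was not tested. Endothelial markers summed to 11.1 to 27.7 CPM in KO RNA and 5.78 to 18.3 CPM in WT RNA. Of these 8 markers, Cldn5 was at 0 in all RNA libraries and Cdh5 and Tie1 in the WT ones, while the 2 tested in RNA and the 3 tested in footprints all had positive log2 fold changes, none past an adjusted p of 0.05 by edgeR. Tek was at 3.72 to 6.66 CPM in KO RNA and 0.196 to 2.47 CPM in WT RNA (log2 fold change 1.78, SE 0.61), and Flt1 had a log2 fold change of 0.78 (SE 0.69). The part of endothelial cells in the collagen values was not tested. Microglial markers summed to at most 1.30 CPM. Oligodendrocyte lineage markers summed to 1319 to 1930 CPM in KO RNA and 1432 to 2228 CPM in WT RNA, and neuronal markers to 317 to 713 CPM in KO RNA and 284 to 937 CPM in WT RNA. Of 12 oligodendrocyte lineage markers, 7 were tested in RNA. Their log2 fold changes, 2 positive and 5 negative, ran from -3.40 (Nkx2-2) to 2.41 (Bcas1). Of 8 neuronal markers, 3 were tested in RNA, Map2, Tubb3 and Prox1, all negative at -1.15 to -0.42. None of these passed an adjusted p of 0.05 by edgeR.

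Astrocyte markers summed to 1910, 1717, 912 and 741 CPM in RNA of KO cultures 1 to 4, against 1386, 651, 139 and 321 CPM in WT cultures 1 to 4. Most of the KO sum was Sparcl1, at 585 to 1175 CPM in KO RNA and 40.5 to 247 CPM in WT RNA. Its log2 fold change in RNA was 2.57 (SE 0.54, edgeR adjusted p = 0.973). The other 5 markers tested in RNA had negative log2 fold changes, at -1.59 to -0.04. In footprints 5 of the 7 markers tested, Sparcl1 among them, had positive log2 fold changes and 2 had negative ones. The footprint values had a median of 0.47 and ran from -0.44 to 2.62. Their smallest edgeR adjusted p was 0.189, for Sparcl1. Without Sparcl1 the RNA sum was 735, 673, 157 and 156 CPM in KO cultures 1 to 4, against 1139, 425, 98.3 and 234 CPM in WT cultures 1 to 4. This RNA sum was higher in KO in pairs 2 and 3 and lower in pairs 1 and 4. With or without Sparcl1, cultures 1 and 2 were above cultures 3 and 4 of the same genotype. In RNA this order was also seen in Col27a1, Col4a5 and Col6a3, and in Col5a2 of WT cells. Mean RNA levels of Col5a1, Col9a3, Col28a1 and Col4a2 went the other way in both genotypes. The same split of cultures separates the identifier lengths of the footprint libraries. The part of this order and of astrocytes in the collagen values was not tested.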

How the data were processed

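The members, gene lists and tests were chosen with earlier results of these data known. The table of estimated counts deposited by the authors held whole numbers only. The TPM table the authors deposited was rounded to whole numbers as well, and is therefore handled as a score. Tools listed without a role in the submitters' processing notes are RSEM 1.2.11, TopHat2 2.0.9, cutadapt 1.7.1, bedtools 2.22.0, Bowtie2 2.1.0 and SAMtools 0.0.19, with build mm10. Neither the use of strand nor the collapsing of identifiers is given in the sources used here, so overlapping genes such as Col4a1 and Col4a2 cannot be fully told apart. Per the labels' protocols, footprints came from RNase A and RNase T1 digestion and monosomes, tagged with molecular identifiers (5 nt in the first pair of replicates, 1 and 2, and 8 nt in the other, 3 and 4), and RNA libraries from the NuGEN Ovation V2 kit.

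Of 20436 rows, 27 with a bare number for a symbol were left out (0.244% to 0.422% of counts). Counts were tested with edgeR 4.0.16 in R 4.3.3 (TMM, filterByExpr, glmQLFit, glmQLFTest, two-sided, Benjamini-Hochberg over all genes tested, threshold 0.05). RNA was fitted with genotype, footprints with genotype and identifier length, and TE as the interaction over 16 libraries with no culture term. CPM is scaled by TMM within an assay, log2 CPM has a prior count of 2, and the SE comes from the quasi-likelihood F statistic. The fits were tested on simulated counts. Alternatives were DESeq2 1.42.0, other scalings and filters, limma 3.58.1 on log2(TPM + 1) and log2(TPM + 0.5), a replicate block, batch terms, subsets of cultures and leaving out each library, and, added after seeing the data, a culture block in TE.

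Named were the fibrillar genes tested, the most abundant member of each other class, any member with an unadjusted p under 0.05, of the lists for biosynthesis, receptors and cleavage those called or, with none called, the 2 of highest TPM and the 2 of smallest p in RNA, and Fmr1. The other genes named were chosen after their values were seen. WT and KO share replicate numbers 1 to 4 in the titles, and libraries of the same number deviated from their group means together (r of 0.481 to 0.613 in RNA and 0.379 to 0.540 in footprints). Every r was over 0.1, the limit set for treating numbers as pairs. The main fits, and those with 1 library left out, did not use the pairs, which entered only as the replicate block. Their SE and p-values therefore leave the pairing out. Between different numbers the correlations were -0.542 to 0.368 and -0.456 to 0.453. No replicates held identical values.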

Additional observations from a re-analysis of the deposited data

Results flagged for a closer look

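In 64 groups of 4 cultures (each collagen tested, in 1 genotype and assay), 6 had a single culture far from the other 3 relative to the range of the group in log2 CPM, where chance marks about 1 in 20 groups. Col4a5 was at 0 CPM in KO replicate 4 RNA, against 74.1 to 184 CPM in the other KO cultures, and at 2.50 CPM in KO replicate 4 footprints, against 120 to 264 CPM. Col16a1 footprints were at 176.0 CPM in KO replicate 2, against 86.3 to 97.0 CPM in the other KO cultures. Col9a1 footprints were at 1.90 CPM in KO replicate 1, against 0.926 to 1.01 CPM in the other KO cultures. Col23a1 RNA was at 6.27 CPM in WT replicate 1, against 1.15 to 1.56 CPM in the other WT cultures. Col12a1 footprints were at 6.53 CPM in WT replicate 2, against 0.726 to 0.913 CPM in the other WT cultures.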

How the results depend on the processing

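Genes called numbered 1 in RNA and 4 in footprints. In RNA they numbered 20 by DESeq2, 2 by limma on log2(TPM + 1), and 0 with the replicate block, with a batch term, and in replicates 1 and 2 alone or replicates 3 and 4 alone. In footprints they numbered 82 by DESeq2, 0 with the replicate block and in replicates 1 and 2 alone, and 2 in replicates 3 and 4 alone. Leaving out 1 library gave 0 to 1 in RNA and 0 to 14 in footprints, the most without KO replicate 4. Collagens called numbered 0 in each of these, except 1 in each assay by DESeq2 (Col5a2, -4.58 and -3.02). The block, which pairs the cultures by number, gave Col5a2 -3.69 in RNA and -2.93 in footprints (edgeR adjusted p = 0.426 and 0.854) and changed no call on a collagen. The fibrillar median in TE was 0.85 in replicates 3 and 4 alone, and -0.29 to 0.56 with 1 library left out. The fibrillar medians were -0.44 to 0.37 in RNA and -1.27 to -0.74 in footprints with 1 library left out and the filter rerun. Without a filter they were -0.04 over 9 genes in RNA and -0.15 over 10 in footprints. Neither another scaling nor its absence moved the median of all genes by more than 0.02.

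Log2 fold changes of genes that were not called turned sign as follows, and the cause was not tested. In replicates 1 and 2 alone, Col16a1 was 0.10 in RNA and 0.0271 in footprints, and Col23a1 -0.36 in footprints. In replicates 3 and 4 alone, Col11a1 was -0.18 in RNA, Col28a1 0.42 and 0.32, and Col4a1 0.0515 and 0.0816 in RNA and footprints. On log2(TPM + 1) and log2(TPM + 0.5), Col11a2 and Col5a3 were 0, Col23a1 -0.0658 and -0.16, and Col28a1 0.00794 and 0.0177. Without the identifier term, Col23a1 was -0.14 in footprints. With 1 library left out, ranges that crossed 0 in RNA were -0.37 to 0.37 for Col11a2, -1.64 to 0.10 for Col27a1, -0.31 to 0.0231 for Col16a1, -0.39 to 1.21 for Col23a1 and -0.62 to 0.40 for Col28a1. In footprints they were -0.22 to 0.78 for Col23a1 and -0.14 to 1.49 for Col6a1, and in TE -0.47 to 0.0884 for Col5a1. Col11a2, Col5a3 and Col23a1 were at a few CPM, where low counts limit the precision.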
